A study of Mus musculus with 12 samples.

Results

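Unbound lung RNA, the fraction left in the supernatant (Sup) after an antibody against N6-methyladenosine (m6A) had captured the methylated RNA, was compared between mice with chronic allergic asthma and control mice. The comparison used 6 of the 12 samples of the series, the Sup samples of 3 asthma and 3 control mice, and the other 6 samples held the bound RNA (IP) of the same animals. A transcript probe was tested where the scanner scored it well above background in all 3 mice of at least 1 group, which kept 45243 of the 56554 transcript probes. All animals were female BALB/c mice, the tissue was whole lung, and the sample labels give an age of 8 to 10 weeks, while the study's methods give a younger one. Asthma mice were injected with 0.01% ovalbumin (OVA, an egg protein used as allergen) into the peritoneum on days 0 and 7 and then inhaled a 2.5% OVA aerosol 3 times per week for 7 weeks, and control mice received phosphate-buffered saline (PBS). The labels number the samples of each group from 1 to 3. They do not say whether RNA of several animals was pooled, so each sample is called a mouse here. P values set the difference between the groups against the spread between these samples. For each probe, the empirical Bayes step of limma moderates that spread by the spread over all tested probes.

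m6A is the most common internal modification of mRNA, written by methyltransferase complexes, removed by demethylases and read by proteins that steer splicing, translation and decay. The unbound fraction holds the copies of a transcript that the antibody did not capture, so its signal depends on the amount of the transcript and on the share of it left unmethylated. In chronic allergic lung inflammation, type 2 cytokines are known to recruit eosinophils, to turn airway cells into mucus-producing goblet cells and to drive macrophages towards alternative activation. In whole lung, more cells of a type and more RNA per cell cannot be told apart.

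In the unbound RNA of asthma lung, genes known from eosinophils, goblet cells and alternatively activated macrophages were higher than in control lung. Rnase2a, an eosinophil-associated ribonuclease, rose 38.9-fold and Clca1, a chloride channel regulator secreted by goblet cells, was 18.1-fold higher, with a limma P adjusted over all probes of 0.181. Clca1 was well above background in only 2 control mice and read 4 scanner units in control mouse 1. Its folds given here thus rest in part on a background level. Chil4, a chitinase-like protein, and Arg1, the arginase of alternatively activated macrophages, rose 9.72-fold and 3.25-fold. Fabp1, a fatty acid-binding protein, was 8.27-fold lower, and Fpr1, the formyl peptide receptor of neutrophils and monocytes, was 3.43-fold lower, with an adjusted limma P of 0.231. These folds carry an offset of 50 units that holds them down, and with the scanner's processed signal, which has none, they were 136-fold for Rnase2a, 51.4-fold for Clca1, 16.3-fold for Chil4, 16.1-fold for Arg1, 16.3-fold for Fabp1 and 6.09-fold for Fpr1. The files pair no probe with a gene. Genes were named only for the 40 transcripts (20 mRNAs and 20 lncRNAs) that the study lists as changed in bound RNA, each found through its 1 probe. The study chose these transcripts in the bound RNA of the same mice, so their direction in unbound RNA is not independent evidence.

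Each array took both fractions of 1 mouse, IP in Cy5 and Sup in Cy3, without a dye swap. Per mouse, 80.4% to 84.4% of Sup spots passed the scanner's background test and none was saturated, and the small number of arrays limits the precision. The median spot signal lay between 43 and 63 scanner units, before subtraction of a local background with medians of 11 to 13 units. The log2 scale used below carries an offset of 50 units, which shrinks fold changes where the signal is dim. Each log2 value is given relative to the mean log2 signal of 114 spike-in probes of the same channel, of which 52 were well above background in all 6 mice. The probes of the housekeeping genes Gapdh and Pgk1 that the array names differed between the groups by -0.05 to 0.18 on the log2 scale. Slide 1 held the 3 asthma mice and control mouse 1, and slide 2 held control mice 2 and 3. Asthma mouse 3 stood apart from the other asthma mice. Over the tested probes its Pearson correlation was 0.977 and 0.981 with asthma mice 1 and 2, which correlated with each other at 0.996, but 0.992 and 0.991 with control mice 1 and 3. Control mouse 2 had the brightest Sup channel. No lung or blood cell markers beyond the listed transcripts could be named, so the tissue label and the cell make-up were not checked.

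Promoter sequences are shown for the named genes whose change also passed the limma P adjusted over all probes, as far as the RefSeq promoter table (GRCm38.p6) holds them and places the start at the outer end of the RefSeq gene. They are the 250 bases before the start, written 5′ to 3′ on the strand of the gene. Capitals mark matches, on either strand, to TTCNNNNGAA, the spacing that STAT6 (the transcription factor of interleukin 4 and 13 signalling) prefers, or to TATAAA, the TATA box. The first motif occurs in 5.85% and the second in 12.4% of all 32851 promoters of the table.
Rnase2a promoter (chr14:51256113-51256362, minus strand): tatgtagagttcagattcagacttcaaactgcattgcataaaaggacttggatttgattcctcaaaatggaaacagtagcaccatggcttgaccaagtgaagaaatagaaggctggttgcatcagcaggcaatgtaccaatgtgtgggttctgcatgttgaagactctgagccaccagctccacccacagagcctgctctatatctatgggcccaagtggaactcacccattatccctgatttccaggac
Cd209e promoter (chr8:3854287-3854536, minus strand): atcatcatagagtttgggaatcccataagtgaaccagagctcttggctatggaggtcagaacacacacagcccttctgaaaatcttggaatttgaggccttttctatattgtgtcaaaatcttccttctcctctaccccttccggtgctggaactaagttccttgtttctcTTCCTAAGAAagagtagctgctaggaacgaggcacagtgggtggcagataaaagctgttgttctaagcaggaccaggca
Chil4 promoter (chr3:106219480-106219729, minus strand): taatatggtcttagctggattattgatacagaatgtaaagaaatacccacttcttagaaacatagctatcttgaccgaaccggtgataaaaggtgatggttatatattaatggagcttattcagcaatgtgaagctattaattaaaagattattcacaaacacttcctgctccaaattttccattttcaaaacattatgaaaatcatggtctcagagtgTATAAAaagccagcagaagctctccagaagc
Fabp1 promoter (chr6:71199629-71199878, plus strand): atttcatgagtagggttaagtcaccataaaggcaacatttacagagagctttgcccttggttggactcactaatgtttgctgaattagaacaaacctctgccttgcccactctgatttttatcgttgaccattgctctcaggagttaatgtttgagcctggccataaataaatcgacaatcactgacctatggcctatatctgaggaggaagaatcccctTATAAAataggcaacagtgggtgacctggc
The Cd209e window holds 1 match to TTCNNNNGAA, which begins 79 bases before the start. The windows of Chil4, which rose, and Fabp1, which fell, hold a TATAAA match beginning 31 and 30 bases before the start. The Rnase2a window, before the transcript with the largest rise of all, matches neither motif. Of the 15 listed mRNAs with a promoter in the table, 1 had the first motif and 5 the second. A match is a description of the letters and not a binding site.

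Across all tested probes, 264 (0.584%) were higher and 596 (1.32%) were lower in the unbound RNA of asthma lung at the study's thresholds, a fold change above 1.5 with an unadjusted limma P below 0.05. With the limma P adjusted by Benjamini-Hochberg over all tested probes, 27 (0.0597%) were higher and 1 (0.00221%) was lower. The change of a typical probe was small, with a median of -0.07 on the log2 scale and quartiles of -0.19 and 0.04. The large changes were rises, since 29 called probes were over 4-fold higher and 2 over 4-fold lower. The share of higher probes among those called was 30.7% and varied with the processing and with single mice. When 1 mouse was left out, it ran from 8.34% without control mouse 1 to 86.9% without control mouse 2. With the bright spike-in probes the share was 27.9%. It was 68.1% with scaling to the 75th percentile, 46.9% with quantile normalization, 60.0% without scaling, 21.3% without background correction, 19.2% with the scanner's processed signal and 76.4% with slide as a block. Without asthma mouse 3, 1921 probes were higher and 680 lower, and without control mouse 2, 756 were higher and 114 lower. Each of the other mice also moved a count by over 1.5 times when left out, to 2023 lower without control mouse 1, 175 higher without control mouse 3, 159 higher and 323 lower without asthma mouse 1 and 213 lower without asthma mouse 2. The direction of the called named transcripts described below did not turn under any of these settings.

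Of 3 equal classes of 15081 probes by mean signal, the brightest held 205 of the higher and 529 of the lower calls, and the dimmest held 7 and 1. The offset shrinks fold changes most in the dimmest class, so these counts do not show that dim transcripts changed less. The array's probe names form a series of 48057 probes and a series of 8497 probes, which hold the listed mRNAs and lncRNAs respectively. Of the 39427 tested probes in the larger series, 235 (0.596%) were higher and 554 (1.41%) lower. Of the 5816 in the smaller series, 29 (0.499%) were higher and 42 (0.722%) lower. All 28 probes that passed the adjusted P were in the larger series, and 21 of them have no name here. The largest unnamed rise with groups that did not overlap was at probe ASMM10EP3A101768813, whose signal was 181, 311 and 167.5 units in control mice and 4335.5, 3630 and 4254.5 in asthma mice 1 to 3. Its log2 change was 3.87 (SE 0.17, limma adjusted P = 0.00498). The largest such fall was at probe ASMM10EP3A127980735, with 11609, 20764.5 and 15450.5 units in control and 3073, 4447 and 7676.5 units in asthma mice, and a log2 change of -1.79 (SE 0.39, limma adjusted P = 0.499).

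**Figure D1:**
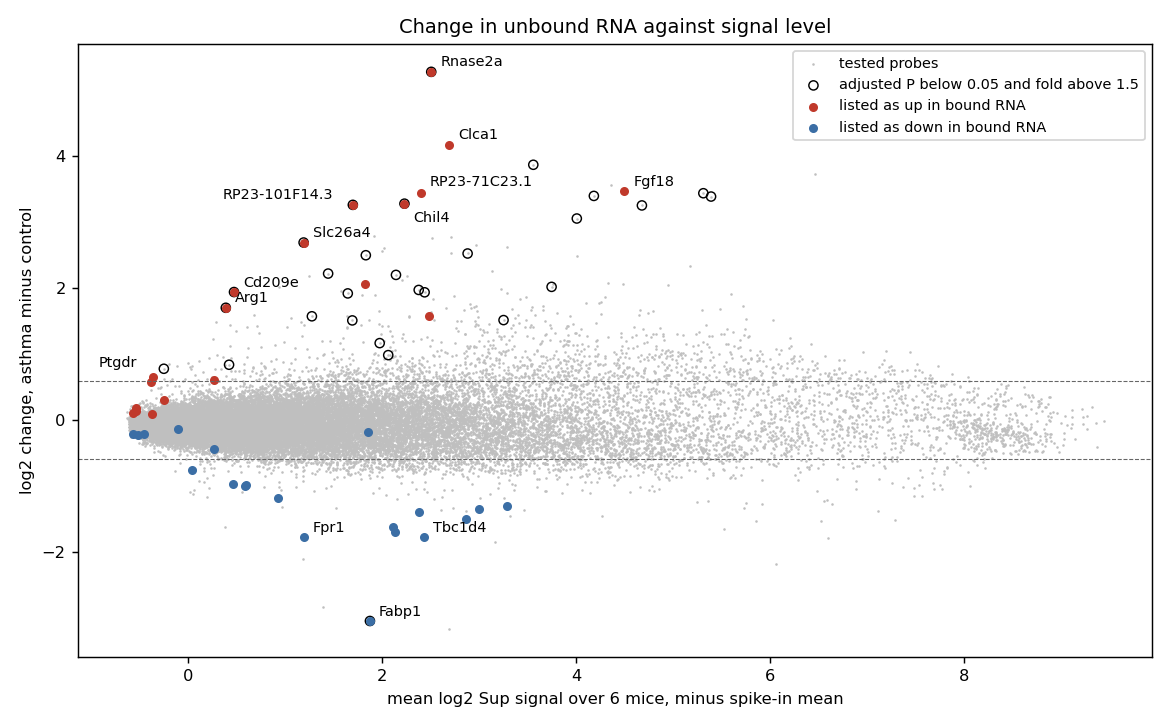
Log2 change in Sup signal between asthma and control (vertical axis) against the mean log2 Sup signal over the 6 mice relative to the spike-in probes (horizontal axis). Grey points are the 45243 tested probes, open circles the 28 past the adjusted limma P, red and blue points the listed transcripts, and dashed lines a fold change of 1.5. Rnase2a is the highest point of all, and Fabp1 is the only named transcript below the lower line with an open circle.

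Of the 20 transcripts listed as higher in bound RNA, 19 were tested in unbound RNA and 13 were called higher, beside 0.584% of all probes. Of the 20 listed as lower, all were tested and 14 were called lower, beside 1.32%. After adjustment over all probes, 6 of the 19 (background 0.0597%) and 1 of the 20 (background 0.00221%) were past the limma threshold, and the other 20 calls rest on the unadjusted P alone. These 7 became between 1 and 8 when single mice were left out, with 1 left without control mouse 3 or asthma mouse 1 and 2 without control mouse 1. Every asthma mouse lay above every control mouse for 14 of the 19, against 2.83% of all probes, and below for 18 of the 20, against 15.4% of all probes. The filter kept Clca1, Ptgdr and Gcnt3 only through the asthma group, and Zfp287 and RP23-334L22.1 only through the control group. Their separation, and the calls of Clca1 and Ptgdr, are thus in part an outcome of the filter. No tested transcript had the opposite sign to its list. The median log2 change was 1.70 over the 19 and -1.09 over the 20, against -0.07 over all tested probes. By class, the calls among transcripts listed as higher were 8 of 9 tested mRNAs and 5 of 10 lncRNAs, and among those listed as lower 9 of 10 mRNAs and 5 of 10 lncRNAs.

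**Figure D2:**
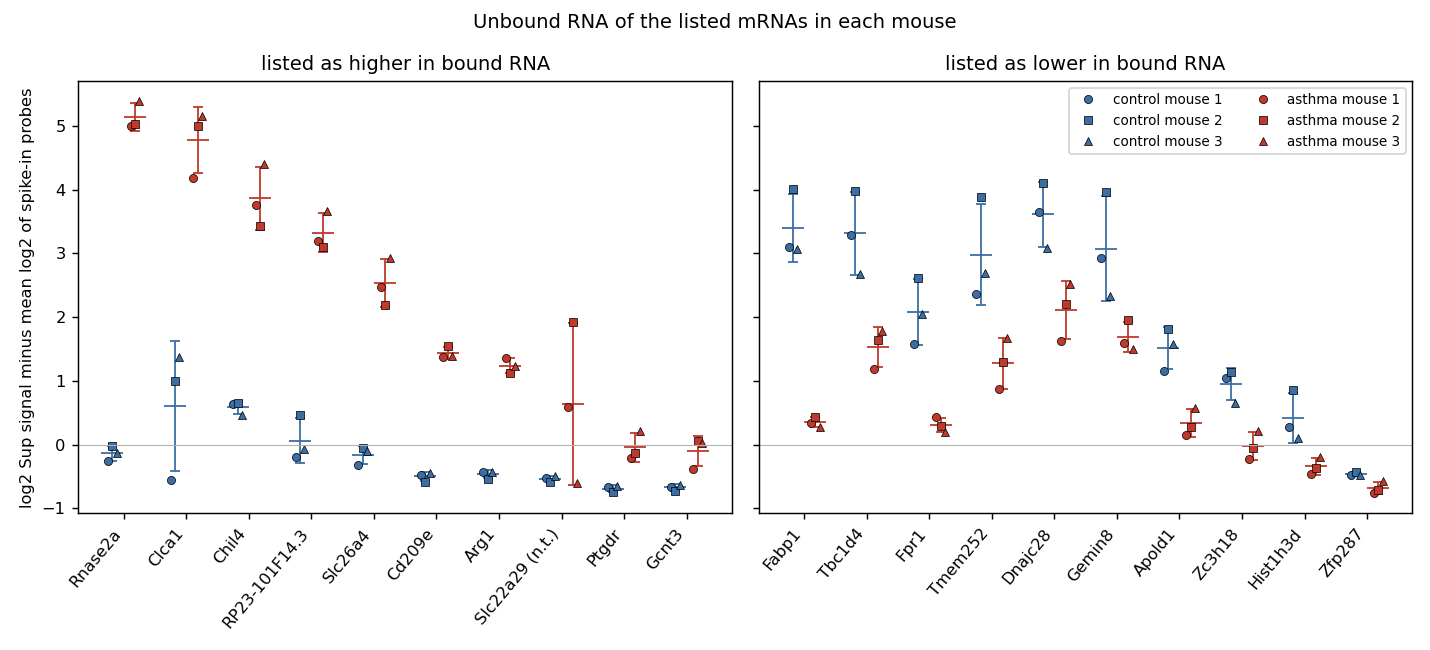
Log2 Sup signal relative to the spike-in probes in each mouse (vertical axis) for the listed mRNAs (horizontal axis), those listed as higher in bound RNA on the left and as lower on the right. Symbols are mice, horizontal ticks group means and bars SD (n = 3), and n.t. marks a transcript that was not tested. The groups are separate for all mRNAs shown except Slc22a29.

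The eosinophil ribonuclease Rnase2a on chromosome 14 (its promoter is shown above) had the largest rise of all 45243 probes. Its background-subtracted signal was 17, 40 and 22 units in control mice 1 to 3 and 3022.5, 3065 and 3469 units in asthma mice 1 to 3. The asthma mice lay close together, far above all controls. The log2 level was -0.14 ± 0.12 (SD, n = 3) in control and 5.14 ± 0.22 in asthma lung, a log2 change of 5.28 (SE 0.13, limma adjusted P = 0.000413). Ptgdr, a receptor for prostaglandin D2, a lipid mediator that mast cells release, gave little signal. It read 0, 3 and -1 units in control and 30, 34 and 44 units in asthma mice, and in no control mouse was it well above background. All asthma mice were above all controls, with a log2 change of 0.65 (SE 0.13, limma adjusted P = 0.491). With the control level set no lower than the dimmest probe well above background, Ptgdr was at least 1.49-fold higher in asthma, under the fold threshold. Such a bound is the lower of the one on the spike-in scale and the one after loess within and Aquantile normalization between arrays, which is open to dye bias because dyes were not swapped. The Ptgdr log2 change was 0.52 without asthma mouse 3 and 0.57 with the bright spike-in probes, and was called in neither.

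Of the genes of mucus and airway epithelium, Clca1 and Slc26a4 rose as well. Clca1, on chromosome 3, read 4, 136 and 159 units in control mice and 1702, 2975 and 2929 units in asthma mice 1 to 3. Control mouse 1 was nearly empty of Clca1 signal, while control mice 2 and 3, on the other slide, were not. The log2 change was 4.18 (SE 0.53), the second largest rise of all probes, but the spread among controls left its limma adjusted P at 0.181. Within slide 1, against control mouse 1 alone, the log2 change was 5.34. Clca1 was well above background in only 2 control mice, and control mouse 1 read 4 units, so that value is not a measured fold. Slc26a4 (chr12:31519814-31560055 in RefSeq GRCm38.p6), which encodes the anion exchanger pendrin, read 14, 38 and 23.5 units in control and 481.5, 381.5 and 585.5 units in asthma mice. Its groups did not overlap, and the log2 change was 2.69 (SE 0.20, limma adjusted P = 0.0176). Gcnt3, an enzyme that branches mucin O-glycans, was near background, at 0, 4 and 0 units in control and 21, 45.5 and 32 units in asthma mice. It was not well above background in any control mouse, and its log2 change of 0.57 (limma adjusted P = 0.499) lay under the fold threshold, with a bound of at least 1.43-fold higher in asthma.

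Genes known from alternatively activated macrophages and dendritic cells formed the third group. Chil4 (chr3:106201491-106219479) read 76, 96.5 and 60.5 units in control and 1250, 974.5 and 1723.5 units in asthma mice, a log2 change of 3.281 (SE 0.24, limma adjusted P = 0.0185). Arg1 (chr10:24915207-24927470) read 9.5, 12 and 7.5 units in control and 194, 153.5 and 143 units in asthma mice. Cd209e (chr8:3847973-3854286), a C-type lectin of the DC-SIGN family, read 7.5, 10 and 7 units in control and 198, 226 and 165 units in asthma mice. For these genes the controls agreed closely and no mouse of one group reached the other group. The log2 change was 1.70 (SE 0.09, limma adjusted P = 0.00585) for Arg1 and 1.941 (SE 0.09, limma adjusted P = 0.00498) for Cd209e. Both were dim in control lung, where the offset holds fold changes down, and with the scanner's processed signal their log2 changes were 4.01 and 4.46.

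RP23-101F14.3, in the study's mRNA list under a clone-based name, lies at the RefSeq genes AA467197 and Mir147. It read 20, 77 and 25 units in control and 833.5, 765 and 1011 units in asthma mice, without overlap, with a log2 change of 3.26 (SE 0.22, limma adjusted P = 0.0144). Slc22a29, an organic anion transporter family member, was not tested because it was well above background in 1 control and 2 asthma mice. It read 5.5, 10 and 5 units in control and 91.5, 309 and 2 units in asthma mice, and asthma mouse 3 was at the level of the controls.

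All 10 mRNAs listed as lower in bound RNA lay lower in every asthma mouse than in every control mouse, and 9 were called. Fabp1 (chr6:71199879-71205034), which carries fatty acids in liver and intestine, read 658, 1477 and 637.5 units in control and 69, 75 and 48 units in asthma mice. Control mouse 2 was the highest and the asthma mice were all low and alike. The log2 level was 3.396 ± 0.53 (SD, n = 3) in control and 0.35 ± 0.08 in asthma lung, a change of -3.05 (SE 0.26, limma adjusted P = 0.031), the second largest fall of all probes and the only fall past the adjusted P. No other gene of liver or of tissue next to the lung could be named on the array, so their signal was not checked. Without control mouse 2 the log2 change was -2.74.

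Fpr1, a receptor for bacterial formyl peptides on neutrophils and monocytes, read 196, 525 and 286.5 units in control and 76.5, 63 and 43 units in asthma mice, a log2 change of -1.78 (SE 0.25, limma adjusted P = 0.231). Tbc1d4, a Rab GTPase-activating protein of insulin-stimulated glucose transport, read 757, 1440.5 and 471 units in control and 165.5, 243 and 235 units in asthma mice, a log2 change of -1.78 (SE 0.34, limma adjusted P = 0.472). Apold1, an early-response gene of endothelial cells, read 133, 279.5 and 192 units in control and 54, 62 and 72 units in asthma mice, a log2 change of -1.18 (SE 0.19, limma adjusted P = 0.353). In each of them control mouse 2 was the highest animal. Control mouse 2 was the highest control for 18 of the 20 transcripts listed as lower and for 11 of the 20 listed as higher. The same count over all probes was not made. After scaling, the median log2 level of this mouse over the tested probes was 0.50, against 0.27 to 0.33 in the other mice.

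The other falling mRNAs were Tmem252, a transmembrane protein, Dnajc28, a J-domain protein, Gemin8, a subunit of the SMN complex that assembles spliceosomal ribonucleoproteins, Zc3h18, a zinc finger protein that links capped RNA to nuclear decay, and the histone H3 gene Hist1h3d (H3c4 in RefSeq). Their log2 changes were -1.70, -1.50, -1.39, -0.97 and -0.75 in this order, with limma adjusted P between 0.397 and 0.499. Dnajc28 read 985, 1575 and 643 units in control and 244, 383 and 426.5 units in asthma mice. Zc3h18 read 118.5, 156 and 76.5 units in control and 29, 39 and 44 units in asthma mice. In both, the lowest control lay above the highest asthma mouse. Tmem252 read 376, 1343 and 479 units in control and 123, 181 and 212.5 units in asthma mice. Gemin8 read 580, 1425.5 and 360 units in control and 239, 314 and 183 units in asthma mice. The groups did not overlap, but the gap between Gemin8 in asthma mouse 2 and control mouse 3 was small, 1.951 against 2.333 on the log2 scale. With slide as a block, Tmem252, Gemin8 and Hist1h3d were no longer called, at log2 changes of -1.09, -1.25 and -0.62, while within slide 1 the same values were called. Hist1h3d also lost its call without control mouse 2, at -0.53. The zinc finger gene Zfp287 was not well above background in any asthma mouse, its log2 change was -0.22, and the bound put it at least 1.102-fold lower in asthma.

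The listed lncRNAs were read through probes that the study places at named loci, and 5 of the 20 carry the symbol of a protein-coding gene at the same place. Whether those probes also read the coding transcript was not tested. The transcript listed as Fgf18, at the locus of a fibroblast growth factor, read 328, 933 and 482.5 units in control and 8967, 7563.5 and 4652 units in asthma mice. All asthma mice were far above the controls, and the log2 change was 3.47 (SE 0.33, limma adjusted P = 0.0523), just outside the threshold. RP23-71C23.1, a clone-named lncRNA with no RefSeq gene at its locus, read 49.5, 125 and 92 units in control and 2929, 2113.5 and 568 units in asthma mice. Its log2 change was 3.44 (SE 0.53, limma adjusted P = 0.297), and asthma mouse 3 was the lowest of its group. Without that mouse the log2 change of RP23-71C23.1 was 4.06.

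Asthma mouse 3 also set the spread of Ntmt1 and Nfyc. The transcript listed as Ntmt1, at the locus of a protein N-terminal methyltransferase, read 62, 187 and 67 units in control and 1408.5, 1199 and 103.5 units in asthma mice, so the groups overlapped at asthma mouse 3 and control mouse 2. Its log2 change was 2.07 (SE 0.81, limma adjusted P = 0.499) with all mice and 3.037 without asthma mouse 3. Ntmt1 was called in 12 of 20 settings. It was not called without control mouse 1 (1.90), control mouse 3 (1.95), asthma mouse 1 (1.53) or asthma mouse 2 (1.63), without scaling between arrays (2.15), without the empirical Bayes step (2.07), or with slide as a block or within slide 1 (both 2.39). The transcript listed as Nfyc, at the locus of a subunit of the CCAAT-binding factor NF-Y, read 218, 281 and 187 units in control and 1346, 1167.5 and 352.5 units in asthma mice, a log2 change of 1.58 (SE 0.41, limma adjusted P = 0.499). Here asthma mouse 3 was low for its group but above every control. Within slide 1 the log2 change of Nfyc was 1.57 and was not called, and it was 2.08 without asthma mouse 3. The transcript listed as Saa3, at the locus of an acute-phase serum amyloid A protein, read 21.5, 43 and 30 units in control and 103.5, 69.5 and 75 units in asthma mice, with a log2 change of 0.60 (SE 0.11, limma adjusted P = 0.472), and lay close to the fold threshold. It lost its call without control mouse 1 (0.54), asthma mouse 1 (0.53) or asthma mouse 3 (0.57), and with the bright spike-in probes (0.52).

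The other 5 lncRNAs listed as higher were dim and not called, with log2 changes from 0.10 to 0.31. RP23-272P19.8, at the immunoglobulin lambda locus Igl, was the largest of them and its groups did not overlap, at 8, 21.5 and 8 units in control and 31, 33.5 and 33 units in asthma mice. RP23-309A11.2, at the protease inhibitor gene Serpina1c, read 8, 20.5 and 6.5 units in control and 18, 19 and 22.5 units in asthma mice, with overlap. 4930542D17Rik and RP24-226D9.3 were not well above background in any control mouse, and their bounds were at least 1.12-fold and 1.06-fold higher in asthma. With the scanner's processed signal, to which no offset is added, all 19 tested transcripts listed as higher were called, beside 1301 of all 45243 tested probes. Of the 19, 4 were well above background in no control mouse and were tested only through the asthma group, so they have no measured control level. Clca1 and RP24-118B12.1, well above background in 2 and 1 of the control mice, were also tested only through the asthma group. With the main scaling, 11 of the 13 that were well above background in all 6 mice were called.

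**Figure D3:**
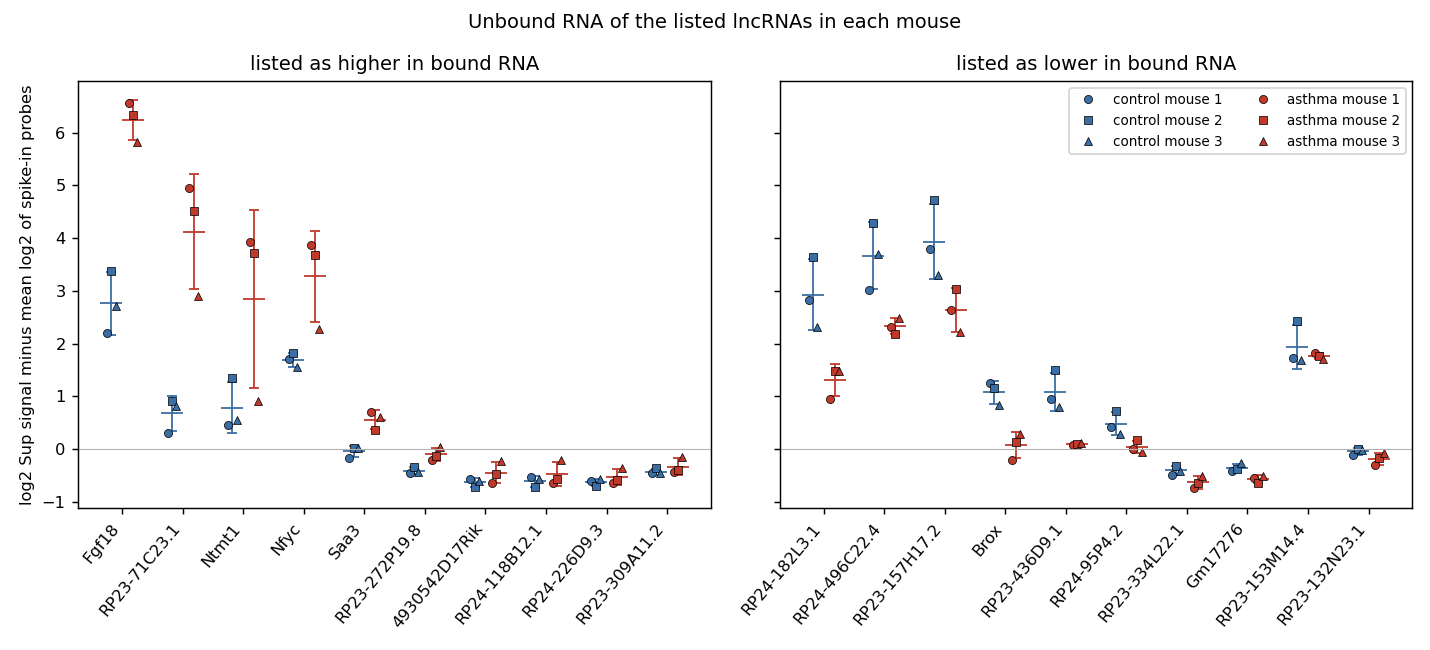
Log2 Sup signal relative to the spike-in probes in each mouse (vertical axis) for the listed lncRNAs (horizontal axis), those listed as higher in bound RNA on the left and as lower on the right. Symbols are mice, horizontal ticks group means and bars SD (n = 3). Asthma mouse 3 lies below the other asthma mice for Fgf18, RP23-71C23.1, Ntmt1 and Nfyc.

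Of the lncRNAs listed as lower, 5 were called. RP24-182L3.1 read 537, 1126 and 353 units in control and 133.5, 212.5 and 179.5 units in asthma mice, a log2 change of -1.62 (SE 0.35, limma adjusted P = 0.499). RP24-496C22.4, at the LIM-domain cofactor gene Ldb2, read 614, 1802 and 1015.5 units in control and 428, 376 and 413 units in asthma mice, a log2 change of -1.34 (SE 0.31, limma adjusted P = 0.499). The groups were separate for both, with control mouse 2 the highest, and within slide 1 RP24-496C22.4 changed by -0.68. RP23-157H17.2, Brox and RP23-436D9.1 changed by -1.30, -1.002 and -0.98 on the log2 scale, with limma adjusted P of 0.499, 0.353 and 0.454, and no lncRNA passed the adjusted P. RP23-157H17.2 was no longer called without asthma mouse 3 (-1.09), with slide as a block (-1.16) or without the empirical Bayes step (-1.30). The remaining 5 had log2 changes from -0.44 (RP24-95P4.2, at the lncRNA gene BC055402) to -0.14 (RP23-132N23.1), and among them Gm17276, at the gene Notch3, read 10, 20 and 15 units in control and 13, 8 and 6 units in asthma mice. RP23-334L22.1, at the gene Rapgef5, was well above background in no asthma mouse, with a bound of at least 1.104-fold lower. RP23-153M14.4, at the genes Sfpq and Zmym1, read 220.5, 456 and 211 units in control and 289, 268 and 221 units in asthma mice, so only control mouse 2 stood out, and its log2 change turned from -0.18 to 0.063 without that mouse.

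With the scanner's processed signal, the log2 change was 4.32 for Slc26a4, 4.72 for RP23-101F14.3, 4.17 for RP23-71C23.1 and 1.35 for Saa3, and -2.09 for Apold1, -1.98 for Zc3h18, -1.87 for Hist1h3d, -1.83 for Brox and -1.82 for RP23-436D9.1. Without asthma mouse 3, 11 of the transcripts listed as higher and 13 of those listed as lower were called, and with slide as a block 12 and 10.

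**Figure D4:**
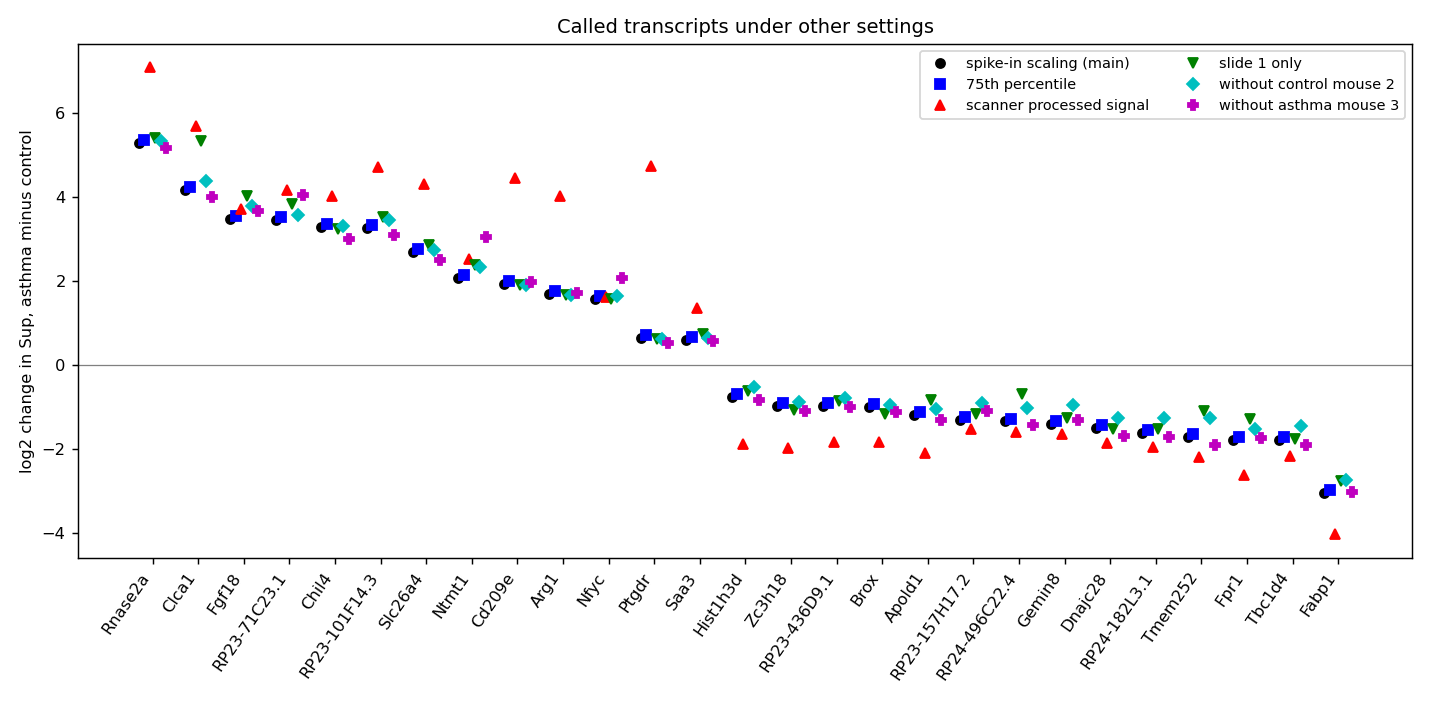
Log2 change in Sup signal between asthma and control (vertical axis) of the 27 called transcripts (horizontal axis) under the main setting and others, marked by symbol. No transcript crosses 0. The scanner's processed signal, which has no offset, gives larger changes for dim transcripts such as Ptgdr, at 4.73 against 0.65. Ptgdr was well above background in no control mouse, so neither of these values is a measured fold.

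The change in unbound RNA was then set beside the change in bound RNA of the same mice, which share their animals and arrays. Rnase2a changed by 5.28 in Sup and 6.10 in IP on the log2 scale, Clca1 by 4.18 and 5.10, Slc26a4 by 2.69 and 3.34, and Chil4 by 3.281 and 3.52. Fabp1 changed by -3.05 in Sup and -2.84 in IP, Fpr1 by -1.78 and -1.59, and RP24-496C22.4 by -1.34 and -0.59. For 7 of the tested transcripts listed as higher, among them Cd209e, Arg1 and Ptgdr, and 2 of those listed as lower, no IP spot of 1 group was well above background, so the IP change there is no more than a bound. Among the others, the rise was smaller in Sup than in IP for 11 of 12 and the fall was smaller in Sup for 5 of 18. The study chose these transcripts by their change in IP, which by itself favours a larger change there than in Sup. These counts and the ratio calls given below carry that choice, and they depend on the scaling between the channels. The median change of the log2 ratio of IP to Sup over the 37141 probes tested in both channels was 0.25 with spike-in scaling, 0.0018 with loess within arrays and -0.08 with scaling to the 75th percentile.

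With limma on the log2 ratio of each array and spike-in scaling, 12 of the 39 listed transcripts changed by more or less in IP than in Sup, all with a positive difference (10 rose more and 2 fell less in IP), beside 12.1% of all probes, and 10 of them passed the adjusted P. With loess within arrays 6 were called, 4 positive and 2 negative, beside 0.382% of all probes, and with the 75th percentile 5 were called, 2 positive and 3 negative, beside 1.24%. Ptgdr, 4930542D17Rik and RP23-309A11.2 were among the positive calls with spike-in scaling and with loess. In no control mouse was Ptgdr well above background in either fraction, or 4930542D17Rik in Sup. In IP, 4930542D17Rik and RP23-309A11.2 were well above background in 1 control mouse each. Their differences thus rest in part on background levels. Of all probes, 4196 passed the adjusted P with spike-in scaling, and 0 passed it with loess, with the 75th percentile, or with spike-in scaling without asthma mouse 2, where 142, 462 and 3560 were called on the unadjusted P. Only the transcript listed as Ntmt1 was called under all of these scalings, with an IP minus Sup difference of 1.44 (SE 0.13, limma adjusted P = 0.00701) with spike-in scaling, and 0.79 with loess and 1.11 with the 75th percentile on the unadjusted P alone. That value rests on 2 asthma mice, because the IP spot of asthma mouse 3 was marked non-uniform and left out. For Rnase2a the difference was 0.82 (SE 0.11, limma adjusted P = 0.00701) with spike-in scaling, 0.05 with loess and 0.49 with the 75th percentile, and only the first was called. For Fgf18 it was 0.81, -0.15 and 0.48. RP23-101F14.3 went the other way, with a larger change in Sup, at -0.40 with spike-in scaling (not called), -0.81 with loess and -0.73 with the 75th percentile (both called).

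**Figure D5:**
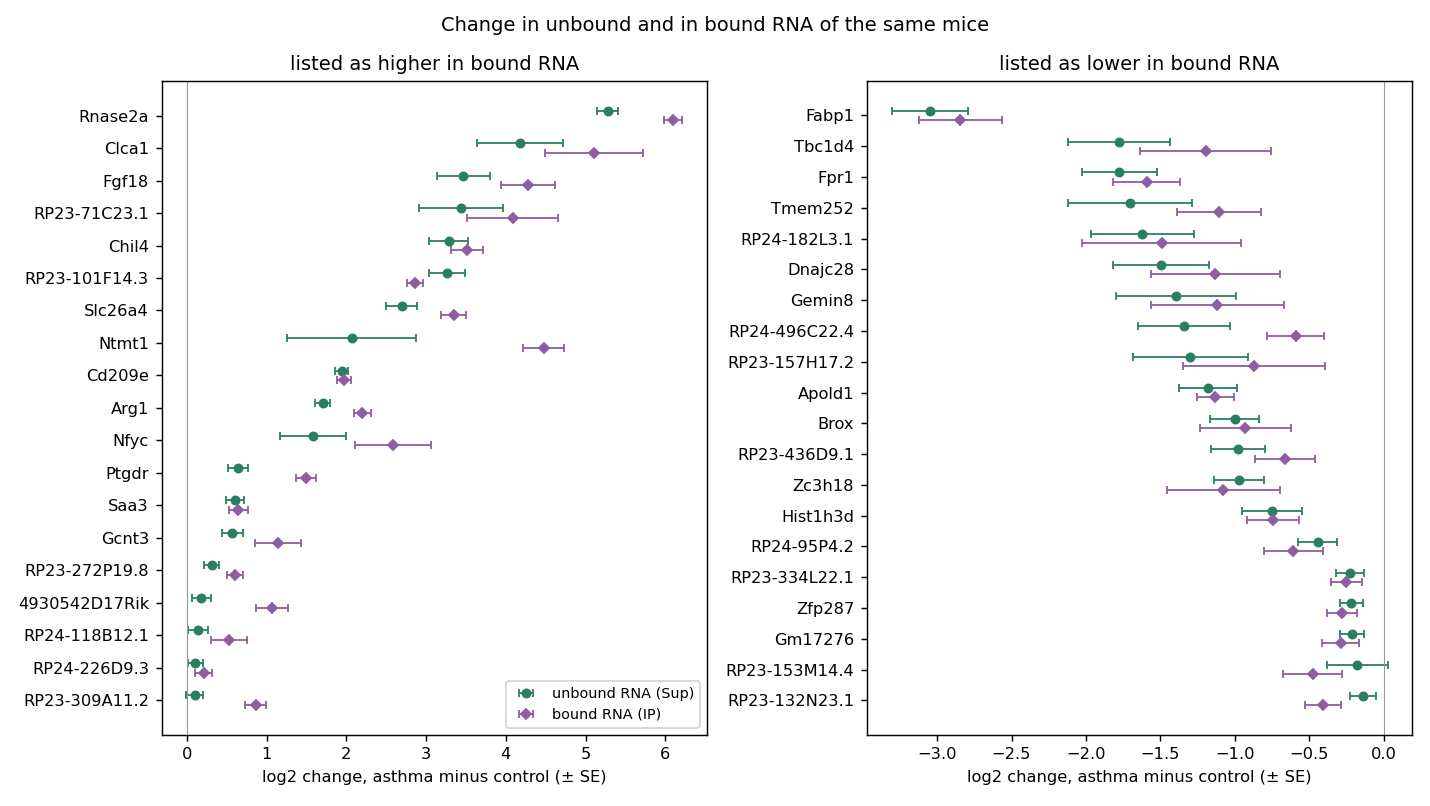
Log2 change between asthma and control (horizontal axis, bars SE) in unbound RNA (circles) and bound RNA (diamonds) for the 39 listed transcripts tested in Sup (vertical axis), those listed as higher in bound RNA on the left and as lower on the right. Both fractions lie on the same side of 0 for every transcript, and Ntmt1 shows the widest gap. For 7 transcripts on the left and 2 on the right, IP was not well above background in any mouse of 1 group. Ntmt1 lies at 2.07 in Sup with all mice and 4.48 in IP without asthma mouse 3.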

How the data were processed

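Lung RNA of 3 control and 3 asthma mice was measured on 6 2-colour arrays. The authors scanned them with Agilent Feature Extraction 11.0.1.1 and deposited the spot intensity of both channels with quality flags, and the pair of files was read as 1 array because the 2 files of a mouse were identical. A deposited table of log2 values equals the scanner's processed signal less 1 constant per column. Here the Cy3 spot median was corrected with normexp (offset 50, limma 3.58.1, R 4.3.3), put on the log2 scale and reduced by the spike-in mean. Groups were compared with limma, without covariates, and P values were adjusted by Benjamini-Hochberg over all probes. Listed transcripts were tied to probes by the fold change and P that the deposited IP values give. All 40 matched 1 probe, and 25 of the 40 names lay at the RefSeq gene (GRCm38.p6) of that name. At most 2 unnamed probes per direction, those of the largest change among called probes without overlap, could be shown by ID. No table paired probes with genes, so the planned gene lists, including cell type markers, were not analysed here. Members, lists and tests were chosen with earlier results of these data known. The test was tried on simulated data. Alternatives covered background, scaling, filter, variance, blocks and single mice.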

Additional observations from a re-analysis of the deposited data

Results flagged for a closer look

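The transcript listed as Ntmt1 differed between the fractions in the size of its change between asthma and control lung, by a test of the difference itself. The IP change exceeded the Sup change by 1.44 on the log2 scale (limma on the ratio of the channels, adjusted P = 0.00701 with spike-in scaling). Ntmt1 was on the list because of its IP change in these same mice. That choice favours a difference of this direction, which the P does not take into account. The difference was also called with loess and with the 75th percentile, but there on the unadjusted P alone, since no probe passed the adjusted P under either, or without asthma mouse 2. Asthma mouse 3 does not enter this value, since its IP spot was non-uniform, and in the Sup channel that mouse lay between control mouse 2 and the other control mice.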

How the results depend on the processing

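Dim probes limit these results, since 49.7% to 59.9% of the transcript probes had less signal than the offset of 50, and 3 mice a group limit the error. Slide overlaps with group in part. Higher and lower counts were 264 and 596. They were 649 and 2393 without background correction, 1301 and 5470 with the scanner's processed signal, 657 and 745 with quantile normalization, 1208 and 566 with the 75th percentile, 261 and 174 without scaling, 602 and 1552 with the bright spike-in probes, 1356 and 3174 with the deposited log2 values, and 156 and 231 without the empirical Bayes step. Adjusted counts, 27 and 1, were in the same order 52 and 4, 106 and 45, 58 and 24, 82 and 12, 17 and 0, 44 and 6, 117 and 42, and 0 and 0. Of the listed transcripts, 7 passed the adjusted P, and this number became 11 without background correction or with the bright spike-in probes, 21 with the processed signal, 14 with the 75th percentile, 24 with the deposited values and 0 without the empirical Bayes step.

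With the replicate number as a block, the counts were 503 and 504, 1 and 0 after adjustment, with 1 listed transcript. Deviations of mice with the same number correlated at -0.35, 0.14 and 0.26, and those of mice with different numbers between -0.36 and 0.42. With 3 mice a group these values cannot show whether the numbers pair the mice. With slide as a block the counts were 304 and 94, 1 and 0 after adjustment, with 1 listed transcript. Within slide 1 they were 444 and 148, 5 and 1 after adjustment, with 2 listed transcripts, with control mouse 1 as the lone control assumed to vary like the asthma mice. Leaving out 1 mouse at a time gave 159 to 1921 higher, 114 to 2023 lower, 1 to 50 adjusted higher, 0 to 1 adjusted lower and 1 to 8 adjusted listed transcripts. Listed calls stayed between 11 and 19 for those listed as higher and between 10 and 18 for those listed as lower. RP23-153M14.4, not called, turned from -0.18 to 0.046 with slide as a block, to 0.046 within slide 1, and lay between -0.31 and 0.063 when 1 mouse was left out. The ratio was called for 6 listed transcripts with loess and 5 with the 75th percentile, against 12, no probe passed its adjusted P under either or without asthma mouse 2, against 4196, and the Fgf18 ratio turned to -0.15 with loess. Of the 24 differences called under no scaling, 16 changed sign under some setting. The cause was not tested.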
